A study of Mus musculus with 149 samples.

Results

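Spdef, Foxa3 and Sox9, 3 transcription factors of the mucus-secreting goblet cell, were followed through all 20 groups of a mouse lung study. Members were the genes named alone by a probe set of the array's platform annotation. Each of the 3 genes had 1 such probe set, out of 26166 probe sets on the array and 13494 genes with a probe set of their own, so no second probe set was at hand as a check. They were 1450220_a_at for Spdef, 1431900_a_at for Foxa3 and 1451538_at for Sox9. RNA from whole lungs of BALB/c mice was measured on Affymetrix arrays, 1 animal per array, with 73 arrays of naive and 76 of sensitized mice. The mice were naive or had been sensitized with ovalbumin (OVA), an egg-white protein used to set up allergic airway disease, and were challenged with saline, with buffer (0.1% MSA, an abbreviation the labels do not expand), or with 150, 500 or 1500 ng of thymic stromal lymphopoietin (TSLP), an epithelial cytokine. Lungs were taken 6 or 24 h later, and the 20 combinations held 6 to 8 arrays each. The labels used here give no route, age or OVA schedule.

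Goblet cells line the airways of an inflamed mouse lung and secrete gel-forming mucins. Spdef is an ETS-family factor, and Foxa3 a forkhead factor, that drive the goblet cell programme downstream of interleukin 13 (Il13) and its signal transducer Stat6, and each is able to raise Muc5ac when expressed in airway epithelium. Sox9, an HMG-box factor, acts in the growing airway epithelium, in submucosal glands and in the cartilage of the large airways, where it turns on Col2a1 and Acan.

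In the mouse genome build GRCm38.p6, RefSeq places Spdef on chromosome 17 from 27714446 to 27731003, Foxa3 on chromosome 7 from 19013283 to 19023539 and Sox9 on chromosome 11 from 112782210 to 112787757. RefSeq promoters of the same build, 250 bases before to 50 after a start site, were matched for 2 of the 3 genes. They are shown for reference. Spdef and Foxa3 moved together from animal to animal, as described below, and no link of that to these letters was tested. The Spdef window lies at chr17:27728902-27729201 and the Foxa3 window at chr7:19023490-19023789, both on the minus strand. The Spdef window lies wholly inside the gene span, at a start site within it, while the Foxa3 window runs past the upper end of its span. Both are printed 5′ to 3′ with forkhead and TATA box matches in capitals.
Spdef: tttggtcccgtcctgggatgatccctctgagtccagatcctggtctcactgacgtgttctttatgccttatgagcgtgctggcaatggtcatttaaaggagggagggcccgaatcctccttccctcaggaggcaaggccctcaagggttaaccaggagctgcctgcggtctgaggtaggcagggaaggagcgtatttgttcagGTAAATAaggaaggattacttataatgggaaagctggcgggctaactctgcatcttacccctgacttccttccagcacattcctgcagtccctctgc
Foxa3: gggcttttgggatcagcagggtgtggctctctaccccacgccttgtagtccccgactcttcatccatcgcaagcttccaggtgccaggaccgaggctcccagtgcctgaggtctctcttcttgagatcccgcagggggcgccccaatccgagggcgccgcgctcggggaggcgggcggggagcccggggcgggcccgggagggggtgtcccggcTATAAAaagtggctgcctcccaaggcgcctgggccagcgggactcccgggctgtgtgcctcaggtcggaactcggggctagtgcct
Both strands were searched for the forkhead forms TGTTTAC and TATTTAC, the TATA box TATAAA, the SOX core ACAAT, the ETS cores GGAA and GGAT, and the palindromic STAT6 site. The Spdef window held 1 match to TATTTAC, on the strand opposite to the gene, its first base at position -47 from the start site. That form was found in 3.04% of 32544 promoters of the same length. The Foxa3 window held 1 TATA box at position -36, a match found in 13.6% of promoters. Neither window held TGTTTAC (3.66% of promoters), ACAAT (30.8%) or the STAT6 site (6.98%). The ETS core GGAT occurred 5 times in Spdef and 4 times in Foxa3, and GGAA 7 times and 2 times, but 79.7% and 96% of promoters hold these short cores. The windows differed in base composition, with 53.3% G or C in Spdef and 69% in Foxa3 against a median of 53% over promoters. A match describes these letters and was not tested as a binding site.

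The values are log2 expression levels, so a difference of 1 is a doubling. All 3 genes sat low on the array, at the 26.9th (Spdef), 13.3th (Foxa3) and 18.4th (Sox9) percentile of mean level over genes. Arrays were checked against their labels with the immunoglobulin heavy chain gene Ighm, which separated naive from OVA arrays, and 2 arrays went against their label. The array labelled naive 500 ng 6 h replicate 8 had an Ighm level of 13.56, against 8.51 to 11.55 in the other 72 naive arrays. The array labelled OVA 500 ng 6 h replicate 3 had 9.50, against 13.05 to 14.35 in the other 75 OVA arrays. The chitinase-like gene Chil4 read 11.26 and 6.67 in the same 2 arrays, also on the side opposite to the label. The 3 members were mixed. Spdef, Foxa3 and Sox9 read 8.10, 6.77 and 7.75 in the naive array and 8.12, 7.16 and 7.26 in the OVA array. The highest values of the other 72 naive arrays were 7.97, 6.81 and 7.65. Spdef and Foxa3 of the OVA array thus stayed above the naive range, and Foxa3 of the naive array lay within it. Both arrays were kept, and results that rest on them are given without them too. Beta-actin 3′ minus 5′ signal, a measure of RNA and labelling quality, ran from 1.26 to 2.57 in group means at 6 h and from 1.25 to 1.60 at 24 h. Squamous gullet keratins stood out in 6 arrays.

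Spdef, Foxa3 and Sox9 were all higher in the lungs of OVA-sensitized mice than in those of naive mice, with a higher group mean in each challenge and at both times. Averaged over the 5 challenges, Spdef rose 2.87-fold at 6 h and 2.86-fold at 24 h, Foxa3 3.05-fold and 3.35-fold, and Sox9 2.78-fold and 3.37-fold. In saline-challenged mice at 24 h, Spdef lay between 7.08 and 7.69 (median 7.35) in 8 naive lungs and between 8.30 and 9.26 (median 9.11) in 7 OVA lungs. Foxa3 lay between 5.77 and 6.53 (median 5.94) in naive and between 7.18 and 8.23 (median 8.05) in OVA lungs of the same groups. Sox9 lay between 6.27 and 6.77 (median 6.46) in naive and between 7.08 and 9.31 (median 8.45) in OVA lungs. In all 3 genes the lowest OVA lung of this pair of groups was above the highest naive lung, which held for 5.65% of all genes. The levels do not say whether more goblet cells or more transcript per cell lay behind them, since in whole lung these cannot be told apart.

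The differences were tested with limma across all genes, two-sided, with Benjamini-Hochberg adjustment at 0.05. The averaged OVA minus naive difference at 24 h was 1.52 for Spdef (SE 0.10, adjusted p = 4.54e-28), 1.74 for Foxa3 (SE 0.10, adjusted p = 9.29e-35) and 1.75 for Sox9 (SE 0.15, adjusted p = 2.88e-21). At 6 h it was 1.52 for Spdef (SE 0.10, adjusted p = 4.60e-29), 1.61 for Foxa3 (SE 0.09, adjusted p = 7.18e-33) and 1.48 for Sox9 (SE 0.14, adjusted p = 2.13e-17). Without the 2 arrays at odds with their label the 6 h values were 1.56, 1.63 and 1.54. The averaged contrast called 27.6% of genes raised at 6 h and 28.5% at 24 h, so the call alone does not set these genes apart. Taken challenge by challenge, 29 of 30 differences passed, all upward. Spdef differences ran from 0.92 to 1.84, Foxa3 from 1.17 to 1.92 and Sox9 from 0.91 to 2.13. The share of all genes called raised was 10.9% with saline, 15.7% with buffer, 23.6% with 150 ng, 18.3% with 500 ng and 17.1% with 1500 ng at 6 h, and 14%, 5.03%, 17.2%, 16.8% and 19.7% in the same order at 24 h. The highest and lowest values did not overlap between OVA and naive groups in 7 of 10 comparisons for Spdef, 9 of 10 for Foxa3 and 4 of 10 for Sox9. Of all genes, every OVA lung lay above every naive lung in 1.19%, 1.99%, 4.52%, 1.27% and 3.96% at 6 h, in the order saline, buffer, 150, 500 and 1500 ng, and in 5.65%, 1.01%, 6.74%, 7.83% and 5.94% at 24 h.

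The value that missed was Sox9 in buffer-challenged mice at 24 h. Its 7 naive lungs lay between 6.35 and 6.60 (median 6.37) and its 8 OVA lungs between 6.27 and 8.43 (median 7.35). The lowest OVA lung was below every naive lung of the pair, while 7 of the 8 OVA lungs lay above the naive mean. The difference was 0.91 (SE 0.32, 95% interval 0.28 to 1.54) with an adjusted p of 0.0545 in limma. It passed without the 2 arrays at odds with their label (adjusted p = 0.0483). Of 15 fits that each left out 1 array of these groups, 3 passed. They were those without OVA buffer 24 h replicate 2, 5 or 6, the lowest OVA lungs, at 1.07, 1.02 and 0.95. The others missed, and without replicate 4 the difference was 0.76 (adjusted p = 0.173). Spdef and Foxa3 passed in the same comparison, at 0.92 (SE 0.22, adjusted p = 0.00310) and 1.17 (SE 0.21, adjusted p = 4.70e-05).

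**Figure D1:**
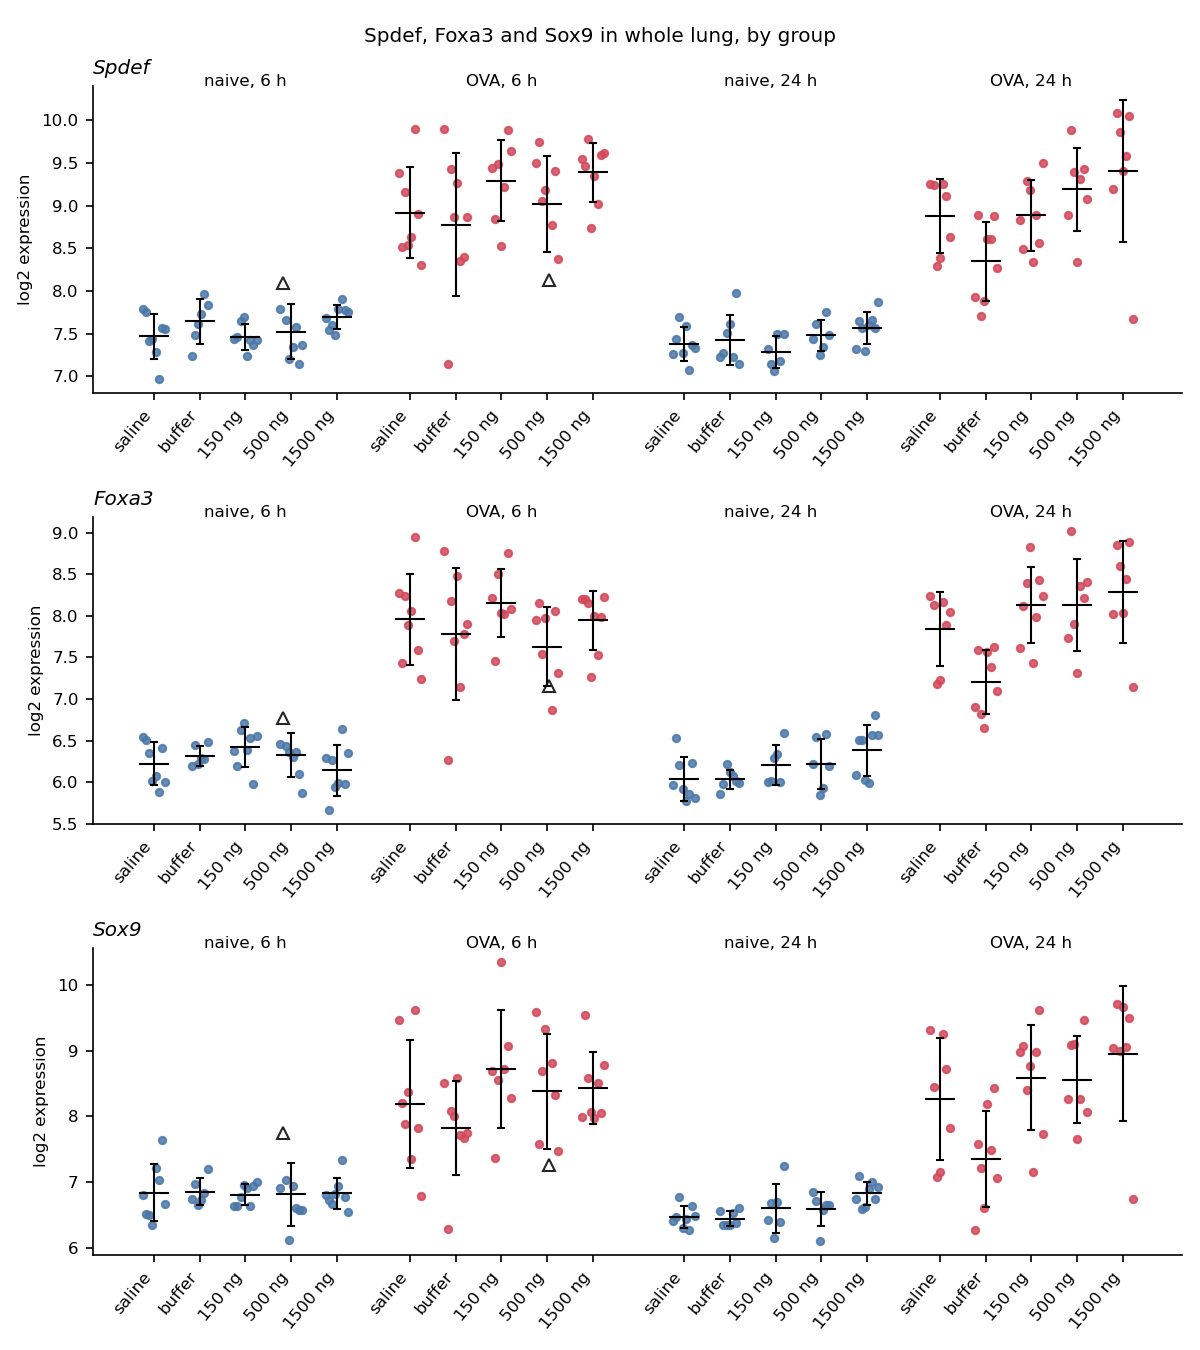
Log2 expression of Spdef, Foxa3 and Sox9 (vertical axis) in each array by group (horizontal axis), naive in blue and OVA in red, with the group mean (dash) and SD (bars). Open triangles are the 2 arrays whose Ighm level went against their label. OVA group means lie above naive group means in all 3 genes. Of 76 OVA arrays, 5 in Spdef, 2 in Foxa3 and 21 in Sox9 lie at or below the highest naive array.

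Across the 20 groups, all 10 OVA means lay above all 10 naive means in each gene. OVA mice given 1500 ng TSLP and killed at 24 h had the highest mean, with Spdef at 9.41 ± 0.83 (SD, n = 7), Foxa3 at 8.29 ± 0.61 (SD, n = 7) and Sox9 at 8.95 ± 1.02 (SD, n = 7). The lowest OVA mean of each gene was in the buffer group at 24 h, with Spdef at 8.35 ± 0.46 (SD, n = 8), Foxa3 at 7.20 ± 0.39 (SD, n = 8) and Sox9 at 7.36 ± 0.73 (SD, n = 8). The highest naive mean was 7.69 ± 0.14 (SD, n = 8) for Spdef, after 1500 ng at 6 h. For Foxa3 it was 6.42 ± 0.24 (SD, n = 8), after 150 ng at 6 h, and for Sox9 6.86 ± 0.20 (SD, n = 6), in buffer at 6 h. When the 20 means of a gene were put in order, 1 of the 19 steps between neighbours exceeded the SD of the neighbouring groups for Spdef and 1 for Foxa3. In both it was the step from the lowest OVA to the highest naive group (0.65 and 0.78). None of the 19 did for Sox9, where that step was 0.50 against an SD of 0.54. The order within the naive groups, and within the OVA groups, was thus not resolved between neighbours.

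Of 76 OVA lungs, 5 lay at or below the highest naive lung in Spdef, 2 in Foxa3 and 21 in Sox9. The highest naive value of Spdef (8.10) and of Sox9 (7.75) came from the naive 500 ng 6 h array that went against its label. Without both such arrays the counts were 5, 2 and 16 of 75. The lowest OVA values of Spdef (7.14) and Foxa3 (6.27) were both in OVA buffer 6 h replicate 3. Its Sox9 level was 6.28, while the other 7 lungs of its group lay between 7.67 and 8.58. OVA 1500 ng 24 h replicate 1 was low in the same way, with Spdef at 7.67, Foxa3 at 7.15 and Sox9 at 6.74, and the other 6 lungs of its group were at or above 9.19, 8.03 and 8.99. These 2 lungs had Ighm levels of 13.51 and 13.87, on the OVA side. Muc5ac, the main inducible airway mucin, was 8.30 and 8.20 in them, against at least 9.65 and 10.55 in the other lungs of their groups.

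In sensitized mice at 24 h the 3 genes were higher after TSLP than after buffer, though not, by the test, than after saline. After 1500 ng, Spdef was 2.08-fold, Foxa3 2.12-fold and Sox9 3.03-fold above buffer. Spdef lay between 7.71 and 8.89 (median 8.44) in 8 buffer lungs and between 7.67 and 10.08 (median 9.58) in 7 lungs given 1500 ng. Foxa3 lay between 6.65 and 7.63 (median 7.24) with buffer and between 7.15 and 8.89 (median 8.44) with 1500 ng. Sox9 lay between 6.27 and 8.43 (median 7.35) with buffer and between 6.74 and 9.70 (median 9.06) with 1500 ng. In each gene 6 of the 7 TSLP lungs lay above the buffer mean, and the groups overlapped through replicate 1.

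The 1500 ng minus buffer difference was 1.06 for Spdef (SE 0.22, adjusted p = 6.24e-05), 1.08 for Foxa3 (SE 0.21, adjusted p = 1.99e-05) and 1.60 for Sox9 (SE 0.32, adjusted p = 2.92e-05) in limma, where 21% of genes were called raised. At 500 ng it was 0.84 for Spdef (adjusted p = 0.00679), 0.93 for Foxa3 (adjusted p = 0.00190) and 1.20 for Sox9 (adjusted p = 0.00770), with 7.43% of genes raised. At 150 ng Foxa3 and Sox9 passed, at 0.93 (adjusted p = 0.00276) and 1.23 (adjusted p = 0.00752), while Spdef was 0.54 (95% interval 0.12 to 0.96, adjusted p = 0.0815), with 7.2% of genes raised. In a fit on the compared groups alone, 4 of the 5 calls at 150 and 500 ng were lost: Foxa3 and Sox9 at 150 ng (adjusted p = 0.0548 and 0.0832), and Spdef and Sox9 at 500 ng (adjusted p = 0.0541 and 0.0581). The 3 genes kept their calls at 1500 ng there and in each fit that left out 1 array. The beta-actin 3′ minus 5′ difference was 0.32 higher after 1500 ng than in buffer (exact permutation test, two-sided, p = 0.000155, the smallest this design allows, adjusted over 10 comparisons to 0.000518). With that difference as a covariate, the 3 values were 1.06, 1.04 and 1.56.

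The same TSLP groups did not pass the test against saline. OVA lungs given buffer had lower means than OVA lungs given saline at 24 h, with differences of -0.53 for Spdef, -0.64 for Foxa3 and -0.90 for Sox9 (SE 0.22, 0.21 and 0.32). The differences missed the threshold, with adjusted p values of 0.237, 0.110 and 0.144 in limma. Of the 8 buffer lungs, 1 lay above the saline mean in Spdef, 0 in Foxa3 and 1 in Sox9. With saline as the reference, 1500 ng TSLP gave 0.52 for Spdef (95% interval 0.07 to 0.97, adjusted p = 0.0707), 0.44 for Foxa3 (0.01 to 0.87, adjusted p = 0.113) and 0.70 for Sox9 (0.05 to 1.35, adjusted p = 0.0989). None of the 9 values at the 3 doses passed in limma, and 3 had an unadjusted p under 0.05. The share of genes raised over saline was 15.8% at 1500 ng, 0.23% at 500 ng and 0.00741% at 150 ng. Buffer against saline called 0.882% of all genes in OVA mice at 24 h, 0.356% in OVA mice at 6 h, 14.9% in naive mice at 6 h and 0.00741% in naive mice at 24 h, and none of the 12 values of the 3 genes passed, with 3 unadjusted p values under 0.05. With array weights the 3 OVA differences at 24 h passed, at -0.51, -0.61 and -0.95.

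**Figure D2:**
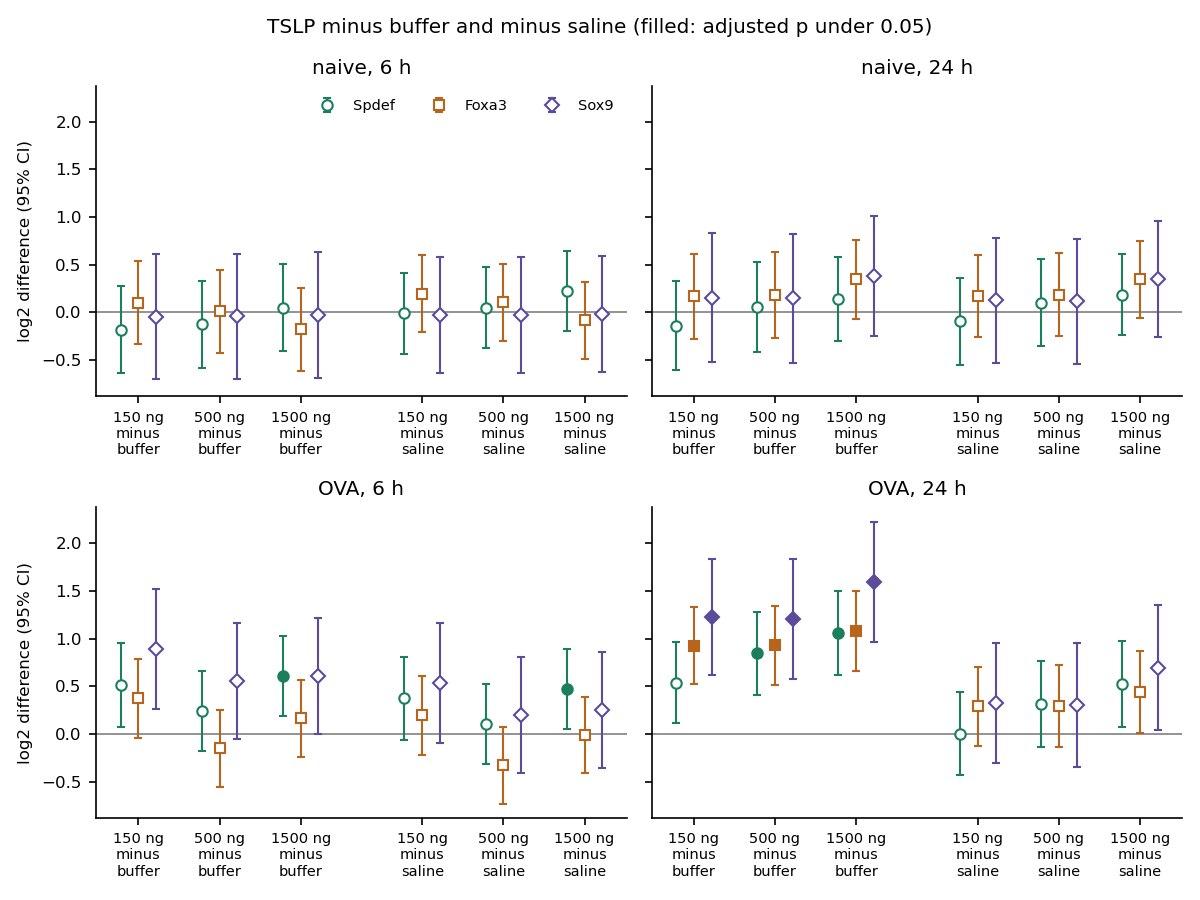
Log2 difference (vertical axis, with 95% confidence interval) between each TSLP dose and buffer, and between each dose and saline (horizontal axis), in naive and OVA mice at 6 and 24 h. Filled symbols passed an adjusted p of 0.05 in limma. At 24 h in OVA mice 8 of 9 differences passed against buffer and 0 of 9 against saline.

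At 6 h in sensitized mice, Spdef was the 1 gene of the 3 that passed. It lay between 7.14 and 9.90 (median 8.87) in 8 buffer lungs and between 8.74 and 9.79 (median 9.50) in 8 lungs given 1500 ng, and 7 of those 8 lay above the buffer mean. The difference was 0.61 (SE 0.21, adjusted p = 0.00953) against buffer and 0.47 (SE 0.21, adjusted p = 0.0468) against saline in limma, where 24.8% and 25% of genes were called raised. Without OVA buffer 6 h replicate 3 it was 0.38 (adjusted p = 0.107). Foxa3 gave 0.17 (95% interval -0.24 to 0.57) and Sox9 0.61 (0.00 to 1.22) against buffer. Without that same lung Foxa3 gave -0.05, and without OVA buffer 6 h replicate 6 it gave 0.31. The beta-actin difference was lower by 1.31 after 1500 ng than in buffer at this time (exact permutation p = 0.000155, adjusted 0.000518), and with it as a covariate Spdef gave 0.62 (adjusted p = 0.165). At 500 ng, where 19% of genes were called raised, the 3 genes gave 0.24, -0.15 and 0.56, none past the test. They gave 0.37, -0.08 and 0.72 without the 2 arrays at odds with their label. At 150 ng, where 0.133% of genes were called raised, they gave 0.51, 0.37 and 0.89, with adjusted p values of 0.364, 0.510 and 0.242.

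In naive mice no TSLP dose changed the 3 genes by the test. The 18 differences from buffer ran from -0.18 to 0.38 with standard errors of 0.21 to 0.34, and 0 had an unadjusted p under 0.05 in limma. Those errors rest on 1 spread per gene over all 20 groups. For Spdef, Foxa3 and Sox9 the SD within groups was 0.23, 0.25 and 0.29 in naive but 0.56, 0.52 and 0.82 in OVA mice. The errors are thus wide for naive mice, and smaller changes there could have been missed. The same contrasts called 27.2%, 42.1% and 15.3% of genes in either direction at 150, 500 and 1500 ng at 6 h, and 0.215%, 0% and 0.978% at 24 h. The largest naive value was Sox9 at 1500 ng and 24 h. Its 7 buffer lungs lay between 6.35 and 6.60 and its 8 TSLP lungs between 6.59 and 7.09, all 8 above the buffer mean. The difference was 0.38 (95% interval -0.25 to 1.01, adjusted p = 0.580), and in the fit on these 2 groups alone, where the OVA spread does not enter, it passed (adjusted p = 0.0430).

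The effect of 1500 ng over buffer was also compared between sensitizations and between times. In OVA minus naive mice at 24 h it differed by 0.92 for Spdef (SE 0.31, adjusted p = 0.0668), 0.73 for Foxa3 (SE 0.30, adjusted p = 0.129) and 1.21 for Sox9 (SE 0.45, adjusted p = 0.0956), none past the test in limma, with 3 unadjusted p values under 0.05. With array weights all 3 passed, at 0.95, 0.83 and 1.35. The 6 h values were 0.56, 0.34 and 0.64. These contrasts called 4.42% of genes at 24 h and 31.8% at 6 h. In OVA mice the 1500 ng effect was larger at 24 h than at 6 h by 0.92 for Foxa3 (SE 0.29, adjusted p = 0.00463) and by 0.99 for Sox9 (SE 0.44, adjusted p = 0.0459), and Spdef gave 0.45 (SE 0.31, adjusted p = 0.204). That contrast called 60.2% of all genes. The beta-actin difference changed in opposite directions with TSLP at the 2 times, and with it as a covariate neither gene passed (Foxa3 0.70, adjusted p = 0.163; Sox9 0.77, adjusted p = 0.332). Sox9 also missed without the gullet keratin arrays (0.96, adjusted p = 0.0675) and in the fit on the compared groups alone (adjusted p = 0.108).

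No dose slope over 150, 500 and 1500 ng passed for any of the 3 genes in the fit as reported. Among 12 slopes, in log2 units per 10-fold dose, 1 had an unadjusted p under 0.05 in limma. It was Spdef in OVA mice at 24 h, at 0.52 (SE 0.22, adjusted p = 0.0911), where the group means were 8.89, 9.19 and 9.41 with rising dose. With array weights it passed, at 0.65 (adjusted p = 0.00701). Sox9 and Foxa3 gave 0.36 (SE 0.32) and 0.15 (SE 0.21) there. Dose slopes called 0.17% of genes in naive mice at 6 h, 50.4% in OVA mice at 6 h, 0.452% in naive mice at 24 h and 15% in OVA mice at 24 h.

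Of 30 differences between 24 and 6 h, 1 passed in limma, a fall of Foxa3 in OVA buffer mice. Foxa3 lay between 6.27 and 8.78 (median 7.84) in 8 lungs at 6 h and between 6.65 and 7.63 (median 7.24) in 8 lungs at 24 h. It fell by 0.58 (SE 0.20, adjusted p = 0.0101), and all 8 of the later lungs lay at or below the earlier mean. The call was lost with the beta-actin covariate (-0.41, adjusted p = 0.312) and on the 2 groups alone (adjusted p = 0.101). Beta-actin itself differed by -1.30 between these groups (exact permutation p = 0.000155, adjusted 0.000518). Over all genes, 24 h minus 6 h called 61.2%, 49.9%, 13.8%, 2.21% and 11.1% of genes in naive mice given saline, buffer, 150, 500 and 1500 ng, and 61%, 61.8%, 45.2%, 13.8% and 30.8% in OVA mice.

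On the log2 scale the levels of these genes varied more among sensitized animals than among naive animals. The pooled SD within groups was 0.23 in naive and 0.56 in OVA mice for Spdef, 0.25 and 0.52 for Foxa3, and 0.29 and 0.82 for Sox9. The ratio of OVA to naive SD was 2.48, 2.04 and 2.87, which ranked 44th, 116th and 23rd among 13494 genes, where the median ratio was 1.01. Without the 2 arrays at odds with their label the ratios were 2.58, 2.08 and 3.13. Naive levels were the lower ones, and low levels are compressed on these arrays. What part this had in the ratios was not tested. All 10 OVA groups had a larger SD than the naive group of the same challenge and time in Sox9, from 0.54 to 1.02 against 0.12 to 0.48.

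**Figure D3:**
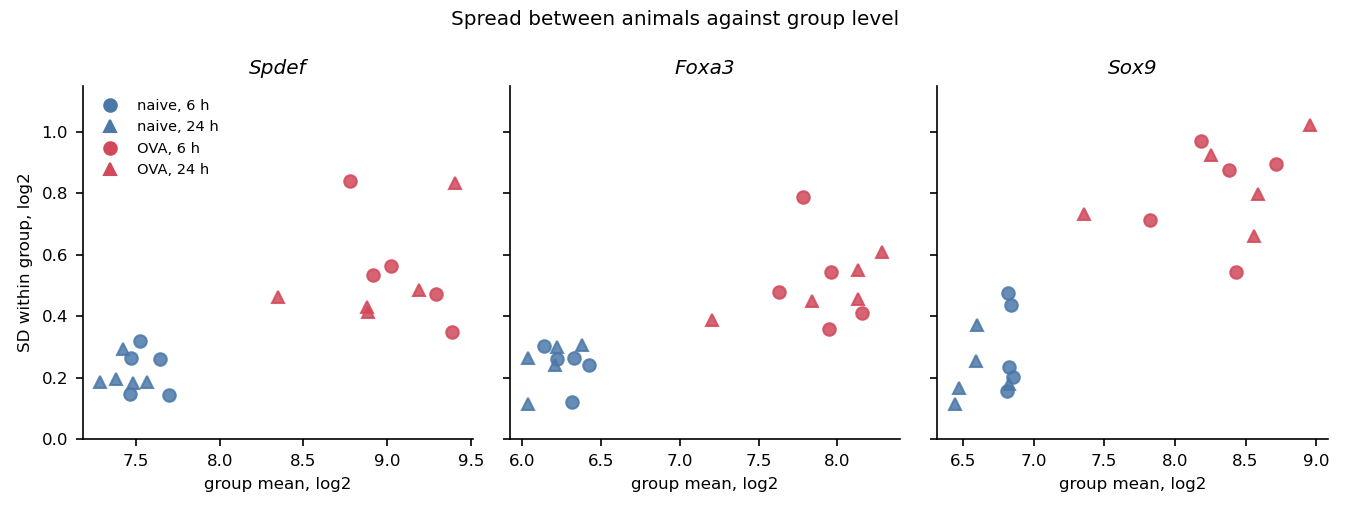
SD within each of the 20 groups (vertical axis, log2) against the group mean (horizontal axis, log2) for Spdef, Foxa3 and Sox9, naive in blue, OVA in red, 6 h as circles and 24 h as triangles. OVA groups lie to the upper right, with Sox9 SDs from 0.54 to 1.02.

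Animals high in one of the 3 genes tended to be high in the others. Each array's deviation from its group mean was correlated over arrays, as a description, in which the genes share their libraries and their RNA quality. Over the 76 OVA arrays Spdef and Foxa3 had a Pearson r of 0.88 (Spearman's rho 0.87), Spdef and Sox9 0.60 (0.54), and Foxa3 and Sox9 0.63 (0.56). Leaving out the 2 arrays farthest from the median in the first gene of each pair gave 0.85, 0.50 and 0.56. In the 73 naive arrays the values were 0.57, 0.37 and 0.36, and 0.53, 0.26 and 0.30 without the array at odds with its label.

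The genes that deviated most like Spdef over all arrays were Ern2, an endoplasmic reticulum stress sensor of mucous cells (r 0.88), Muc5ac (0.87), the protease Capn9 (0.83), the lipoxygenase Alox12e (0.83) and Foxa3 (0.83). Those most like Foxa3 were Ern2 (0.84), Spdef (0.83), Muc5ac (0.80), Alox12e (0.80) and Creb3l4 (0.79). Those most like Sox9 were another set. They were Guca2a, the guanylin precursor (0.88), the homeobox gene Msx3 (0.87), Il13ra2, the decoy receptor of Il13 (0.86), Il13 itself (0.85) and Retnlb, a resistin-like goblet cell product (0.85). In OVA arrays Sox9 and Il13 had r 0.90 (rho 0.91), and 0.90 again without the 2 arrays farthest in Il13, while Spdef and Foxa3 had r 0.47 and 0.46 with Il13. The reverse held for Ern2, with r 0.96 for Spdef, 0.88 for Foxa3 and 0.59 for Sox9. These differences between correlations were not tested.

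**Figure D4:**
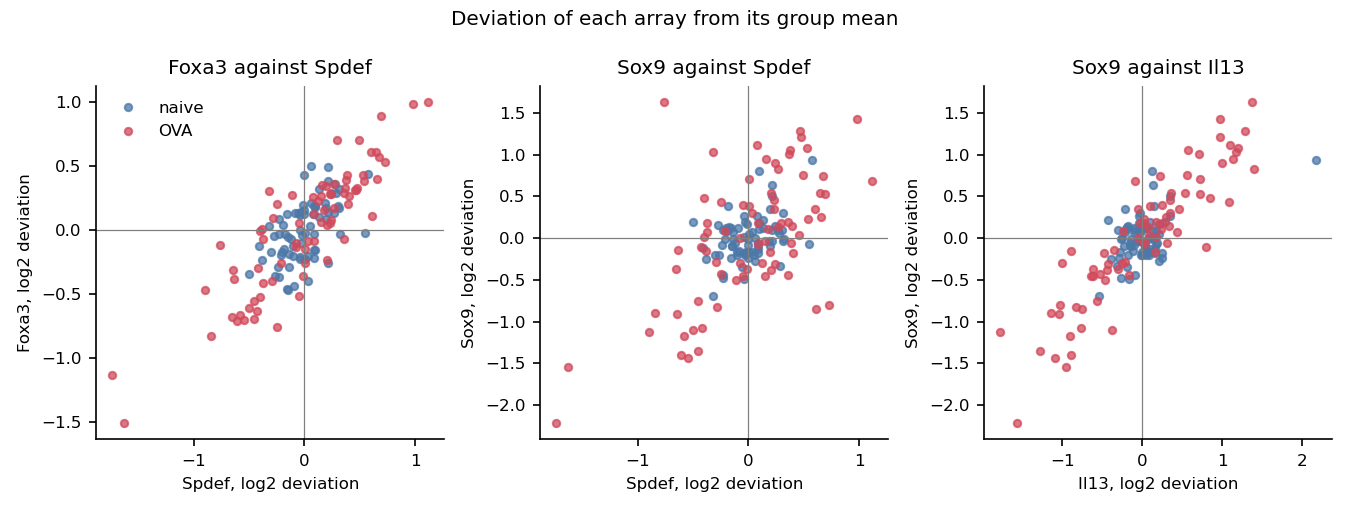
Deviation of each array from its group mean (both axes, log2) for Foxa3 against Spdef, Sox9 against Spdef and Sox9 against Il13, naive arrays in blue and OVA arrays in red. In OVA arrays r was 0.88, 0.60 and 0.90. The naive array farthest to the right in Il13 is the 500 ng 6 h array that went against its label.

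The 20 group means fall into naive and OVA clusters, so likeness over them is given as an order of genes and then within each cluster. Spdef was most like Alox12e, Tmem213, Mrgprg, Scin and Greb1l, Foxa3 most like Tmem213, Retnlb, Capn9, Me1 and Ern2, and Sox9 most like Corin, Msx3, Batf3, Tmem213 and Foxa3, with r from 0.98 to 0.99. Within the 10 OVA means the same 15 pairs had r from 0.83 to 0.96, and within the 10 naive means from -0.40 to 0.87.

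Around the 3 factors, most goblet cell products rose with sensitization. In the averaged OVA minus naive contrast at 24 h, 16 of 19 measured products and mucin-processing genes rose and 1 fell, with a median of 1.61 against -0.02 over all genes. In that contrast 28.5% of all genes were raised and 33.2% lowered. Muc5ac rose by 3.06 (SE 0.16), Muc5b, the constitutive airway mucin, by 1.49 (SE 0.14), the calcium-activated chloride channel regulator Clca1 by 6.86 (SE 0.30) and the mucin-folding protein Agr2 by 2.42 (SE 0.22). The anion exchanger Slc26a4 (4.44), Capn9 (3.87) and the mucus protein Fcgbp (2.93) rose as well. At 1500 ng against buffer in OVA mice at 24 h, 9 of the 19 rose and 0 fell, where 21% of all genes rose and 17.5% fell. Against saline 0 of the 19 passed in either direction, with a median of 0.21, Muc5ac at 0.25 (adjusted p = 0.639) and Capn9 at 0.82 (adjusted p = 0.0861). Against buffer Muc5ac rose by 1.18 (SE 0.34) and Capn9 by 1.91 (SE 0.36), whereas Clca1 gave 0.22 (SE 0.65), Muc5b 0.47 (SE 0.31) and Agr2 1.10 (SE 0.49), none of these past the test.

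Of the arm from interleukins 4 and 13 to Stat6, 11 of 15 measured genes rose with sensitization at 24 h and 0 fell. Of all genes 28.5% rose and 33.2% fell in that contrast. Il13 rose by 2.21 (SE 0.14), Il13ra2 by 2.07 (SE 0.13), the eotaxin Ccl11 by 3.09 (SE 0.15) and Chil4 by 6.35 (SE 0.25), while Stat6 gave 0.00 (SE 0.02). After 1500 ng TSLP in OVA mice at 24 h, 8 of the 15 rose and 1 fell against buffer, where 21% of all genes rose and 17.5% fell. Il13 (1.24, SE 0.31) and Il13ra2 (1.13, SE 0.28) were among those that rose. Against saline 2 of the 15 rose and 1 fell, where 15.8% of all genes rose and 13.3% fell, and Il13 gave 0.29 (adjusted p = 0.544) and Il13ra2 0.26 (adjusted p = 0.540). The Notch pathway, which directs airway cells towards secretory fates, had 1 gene higher and 9 lower of 15 in OVA mice at 24 h, against 33.2% of all genes lowered. Its DNA-binding effector Rbpj rose by 0.19, and the receptor Notch3 and the ligand Dll4 fell by 0.30 and by 0.37. Whole-lung levels do not say in which cells these Notch genes changed. Of 8 genes of the epidermal growth factor receptor arm 0 rose and 4 fell, the latter a share not far from the 33.2% of all genes, with the ligands Btc and Tgfa at -0.51 and -0.22 and the receptor Egfr at -0.11.

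Of 24 other airway transcription factors measured, 11 rose and 7 fell with sensitization at 24 h, with a median of 0.03, against the same 28.5% and 33.2% of all genes. Foxa2, the sister of Foxa3 that restrains mucous change in the lung, gave -0.02 (SE 0.03), and Foxa1 fell by 0.15 (SE 0.05). The lung identity factor Nkx2-1 gave -0.04 (SE 0.03). The ciliated cell factor Foxj1 rose by 0.41 (SE 0.08), the secretory pathway factors Creb3l1 and Xbp1 by 0.46 (SE 0.04) and 0.26 (SE 0.03), and the ETS factor Elf3, of the same family as Spdef, by 0.53 (SE 0.05). Bhlha15, the secretory cell factor also known as Mist1, which plasma cells express too, rose by 1.70 (SE 0.10). In sensitized mice at 24 h, Foxa2 was higher after 1500 ng than after buffer, by 0.33 (SE 0.07, adjusted p = 6.20e-05 in limma). Foxa1 and Nkx2-1 were lower than after buffer, by 0.33 and by 0.18. With saline as the reference Foxa2 still passed (0.36, adjusted p = 3.67e-05). Foxa1 (-0.28, adjusted p = 0.0695) and Nkx2-1 (-0.07, adjusted p = 0.414) did not. At 6 h the differences from buffer went the other way in each. Foxa2 was lower (-0.47, adjusted p = 1.62e-09), and Foxa1 and Nkx2-1 were higher (0.50, adjusted p = 8.22e-05, and 0.23, adjusted p = 0.000294). The beta-actin difference also changed in opposite directions at these times, and its part in this was not tested.

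Among 13 other SOX genes 1 rose and 8 fell with sensitization at 24 h, where 28.5% of all genes rose and 33.2% fell. The riser was Sox2, the factor of conducting airway epithelium, at 0.54 (SE 0.08), and Sox7, Sox5 and Sox17 fell by 0.46, by 0.37 and by 0.28. Sox4 gave -0.11 (SE 0.08). Since Sox9 is also a cartilage factor, chondrocyte genes were read beside it. Of 10 measured of 17 listed, 3 rose (Chad by 1.03, Hapln1 by 0.53 and Comp by 0.41) and 0 fell with sensitization at 24 h, close to the 28.5% of all genes raised. At 6 h 6 of the 10 rose and 1 fell, where 27.6% of all genes rose, and the median was 0.17. Their mean level ran from 6.78 to 7.02 over naive groups and from 7.04 to 7.27 over OVA groups. The SOX9 targets Col2a1 and Acan gave -0.03 (SE 0.08) and -0.25 (SE 0.17), neither past the test. After 1500 ng TSLP in OVA mice at 24 h 0 of the 10 were called against buffer, and 1 rose and 0 fell against saline.

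Markers of other epithelia were read in the same contrasts, with 28.5% of all genes raised and 33.2% lowered by sensitization at 24 h. At that time 6 of 9 measured ciliated cell genes were higher in OVA mice and 0 lower. In OVA mice 5 of 9 were higher after 1500 ng TSLP than after buffer, where 21% of all genes were raised. Against saline 0 of the 9 passed in either direction, where 15.8% of all genes were raised. Of 9 alveolar type 1 genes 9 were lower in OVA mice. After 1500 ng TSLP in OVA mice 7 of the 9 were lower than after buffer at 24 h and 6 of the 9 higher at 6 h. Of all genes 17.5% were lowered in the former contrast and 24.8% raised in the latter. Against saline at 24 h 1 of the 9 alveolar type 1 genes was lower and 0 higher, where 13.3% of all genes were lowered. After sensitization, of 4 submucosal gland genes measured out of 7 listed, 3 were lower and 0 higher at 24 h. The lower ones include Aqp5, which is also on the alveolar type 1 list. Of 9 club cell genes 2 were higher and 3 lower, near the shares over all genes. The mean level of the ciliated list ran from 9.20 to 9.55 over naive and from 9.34 to 9.65 over OVA group means. In OVA arrays the deviations of Foxj1 had r 0.76 with Spdef, 0.64 with Foxa3 and 0.28 with Sox9, and those of the club cell gene Scgb1a1 0.16, 0.15 and -0.10. What part the share of airway tissue in each sample had in these values was not tested.

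**Figure D5:**
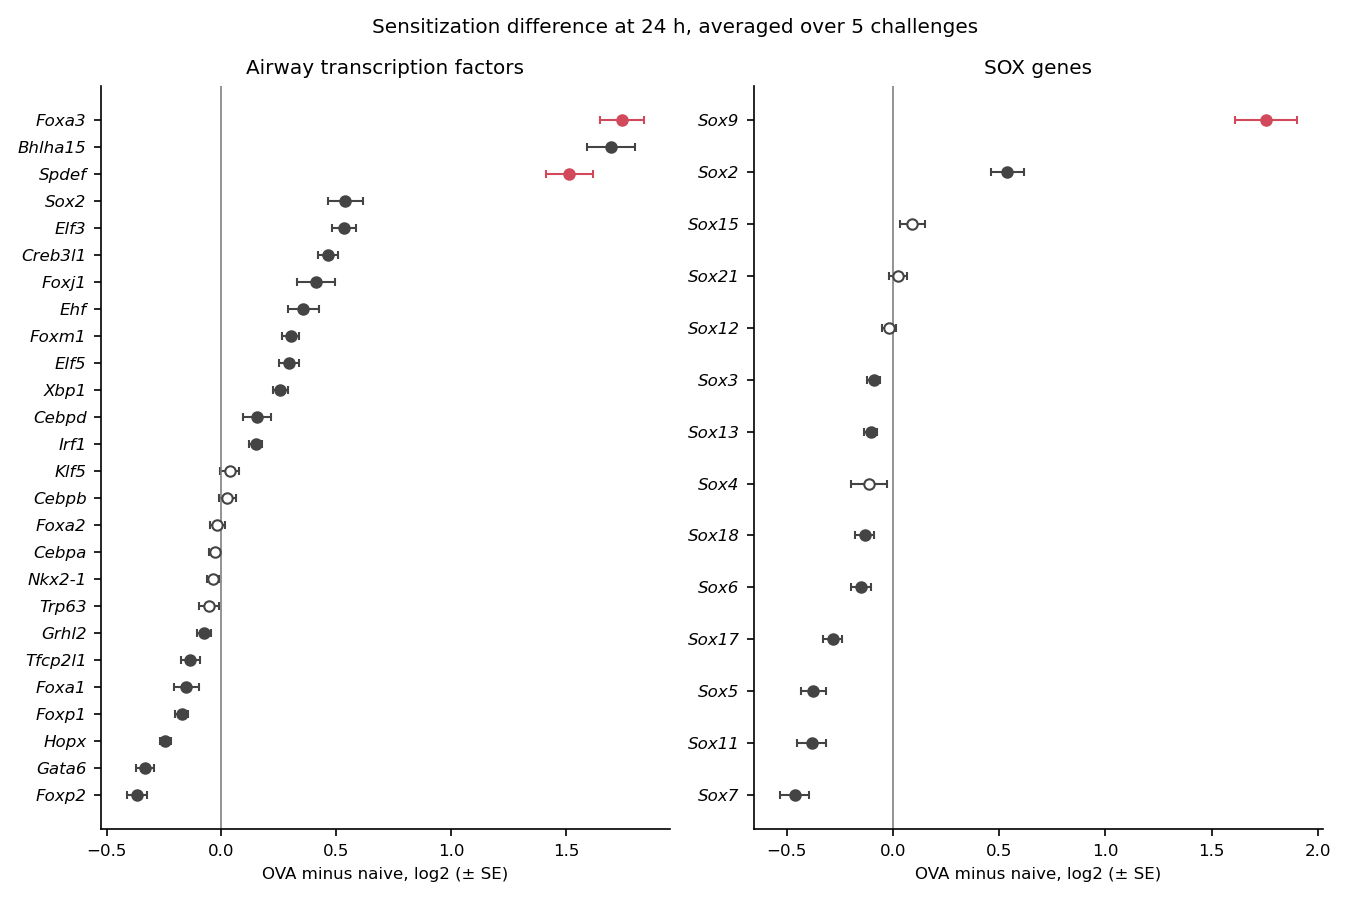
OVA minus naive difference at 24 h, averaged over the 5 challenges (horizontal axis, log2, with SE), for airway transcription factors with Spdef and Foxa3 and for SOX genes with Sox9 (members in red). Filled points passed an adjusted p of 0.05 in limma. The 3 members lie between 1.52 and 1.75, and Bhlha15 is the 1 other factor above 1.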

How the data were processed

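Whole-lung RNA was hybridised to Affymetrix arrays, 1 animal each, in 20 groups of 6 to 8 (3 groups of 6, 5 of 7 and 12 of 8). Per the labels, RNA was extracted with the mirVana kit and labelled with a 3′ IVT Express kit, and no array batch is named. The deposited values are log2 expression per probe set, made by the authors with RMA, per the submitters' processing notes. They hold no detection calls and ran from 2.96 to 15.11, with array medians from 8.97 to 9.16, so probe set levels include background and low genes are compressed. Precision is set by the number of arrays per group.

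Of 26166 probe sets, 22892 named 1 gene, 260 several and 3014 none. The probe set with the highest mean stood for each of 13494 genes. Group means were fitted with limma 3.58.1 in R 4.3.3 over all groups (129 residual degrees of freedom, constant prior, two-sided), with Benjamini-Hochberg adjustment over all genes within each contrast. Every adjusted p is from limma unless an exact permutation test is named. Plots were drawn with matplotlib 3.10.9. The fit was tested on simulated data that gave each gene the same spread in all groups, unlike the 3 genes here. The p-values measure the spread between animals of 1 experiment, taken as 1 value per gene over naive and OVA groups. For the 3 genes the OVA spread was the larger. Their standard errors thus come out too small between OVA groups and too large between naive groups. The members and gene lists were chosen with earlier results of these data known. Genes named beside the members were a fixed set of airway and mucus genes, up to 3 further genes per list by smallest p in the averaged OVA minus naive contrast at 24 h, and the 5 genes most like each member. Alternatives were other probe set rules, a filter on dim genes, quantile normalization, array weights, a trended robust prior, a fit on the compared groups alone, a replicate block on the labelled animal number, a beta-actin covariate, saline as reference, and leaving out gullet keratin arrays, single arrays or the 2 arrays at odds with their label.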

Additional observations from a re-analysis of the deposited data

Results flagged for a closer look

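In 4 of 60 gene and group combinations the lowest array stood clear of its group by Dixon's criterion, which marks about 1 in 20 groups by chance. Spdef in OVA 1500 ng 24 h replicate 1 was 7.67, with the nearest other lung at 9.19. Sox9 in the same lung was 6.74, with the nearest at 8.99. Sox9 in OVA buffer 6 h replicate 3 was 6.28, with the nearest at 7.67. Sox9 in naive 500 ng 24 h replicate 4 was 6.11, with the nearest at 6.58. Muc5ac was also the lowest of its group in both OVA lungs (8.20 in the 1500 ng lung and 8.30 in the buffer lung), and their Ighm level was on the OVA side.

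The effect of 1500 ng TSLP over buffer in OVA mice differed between 24 and 6 h, by a test of the difference in limma, by 0.92 for Foxa3 (adjusted p = 0.00463) and by 0.99 for Sox9 (adjusted p = 0.0459). With the beta-actin 3′ minus 5′ difference as a covariate, which moved with TSLP in opposite directions at the 2 times, neither passed (adjusted p = 0.163 for Foxa3 and 0.332 for Sox9). Sox9 also missed without the gullet keratin arrays (adjusted p = 0.0675) and on the compared groups alone (adjusted p = 0.108).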

How the results depend on the processing

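No called value of Spdef, Foxa3 or Sox9 changed sign under the alternatives run. Of their 144 values 20 crossed 0 in at least 1 alternative, none of them called, and the averaged OVA minus naive calls held in each. Sox9 OVA minus naive in buffer at 24 h (0.91, adjusted p = 0.0545) passed with quantile normalization (0.93, adjusted p = 0.0458), array weights (1.01, adjusted p = 0.00130) and without the 2 arrays at odds with their label (0.91, adjusted p = 0.0483), an alternative chosen after seeing the data, and ran from 0.76 to 1.07 when single arrays were left out. Spdef at 1500 ng minus buffer in OVA mice at 6 h lost its call on the compared groups alone (0.61, adjusted p = 0.0911) and with the beta-actin covariate (0.62, adjusted p = 0.165), and ran from 0.38 to 0.77 with single arrays left out. Sox9 there ran from 0.39 to 0.72 and passed without OVA buffer 6 h replicate 5 or 6. Sox9 at 1500 ng in naive mice at 24 h passed on the compared groups alone (0.38, adjusted p = 0.0430). With saline in place of buffer, the 1500 ng values in OVA mice at 24 h were 0.52 for Spdef, 0.44 for Foxa3 and 0.70 for Sox9, and no longer passed. Array weights changed 13 of 144 values of the 3 genes, all to a call. They called the OVA buffer minus saline differences at 24 h, at -0.51 for Spdef, -0.61 for Foxa3 and -0.95 for Sox9. With the animal number as a replicate block, the Sox9 difference in the 1500 ng effect between times gave 0.97 (adjusted p = 0.0528), the 1 changed call of 144. At 1500 ng against buffer in OVA mice at 6 h, 4 of 8 same-numbered pairs correlated over 0.1 and 2 of 8 best with their own number, so the number did not pair the animals. Leaving out the dimmest 40% of genes removed all 3 genes and gave no value for them. Counts of genes called ranged, over settings with 1 value per gene, from 2338 to 4558 (4536 as reported) for OVA minus naive in buffer at 6 h, from 779 to 2328 (1156) at 24 h, from 5302 to 8907 (8258) for the average at 6 h and from 5478 to 9555 (8321) at 24 h. For 1500 ng minus buffer they ranged from 20 to 5774 (2071) in naive mice at 6 h, 1042 to 8616 (8194) in OVA mice at 6 h, 44 to 268 (132) in naive mice at 24 h and 3862 to 6892 (5191) in OVA mice at 24 h. With each probe set tested on its own, out of 26166, the calls are probe sets, at 9133, 1851, 15943, 15557, 3708, 15853, 401 and 9290 in the same order. The lowest counts came from the fit on the compared groups alone, the beta-actin covariate or the dim filter. The cause of these changes was not tested.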
